A study of Mus musculus with 47 samples.

Results

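The 32 arrays described here came from leukaemic mouse spleens in which Vpreb1, a gene of the pre-B cell receptor, had a log2 value of at most 7, out of 47 spleens in the whole series. They were divided by their own value of S100a8, a neutrophil gene, so the sides were chosen by measured values. 16 arrays had S100a8 above 7 and are called S100a8-high spleens, and 16 had S100a8 at or below 7 and are called S100a8-low spleens. The 15 spleens with Vpreb1 above 7 were not compared. S100a8 and Vpreb1 are therefore described with no test, and 18177 other genes were tested between the 2 sides.

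Each array held RNA of 1 spleen, taken from 1 mouse with a myeloid leukaemia labelled undifferentiated and at its terminal stage. All mice, on both sides, carried Tg(ACTB-cre)2Mrt, a Cre recombinase under the broadly active beta-actin promoter, and Gt(ROSA)26Sortm2(sb11)Njen, a Sleeping Beauty transposase at the ROSA26 locus. The transposon that this enzyme moves was TgTn(sb-T2/Onc2)6113Njen in 4 of the S100a8-high and 8 of the S100a8-low mice, and TgTn(sb-T2/Onc2)6070Njen in the other 12 and 8. An insertion at Erg was labelled as present in 12 S100a8-high and 9 S100a8-low mice. The age label, whose unit is not given in the sources used here, ran from 47 over a median of 74.0 to 97 in S100a8-high mice and from 32 over a median of 55.5 to 89 in S100a8-low mice. The labelled sex went against the level of Xist in 18 of the 32 arrays (24 of all 47), so the labels may not all belong to the arrays they stand beside.

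S100a8 and S100a9 are small calcium-binding proteins that pair into calprotectin, which fills the cytosol of neutrophils and is released by them at sites of inflammation. Neutrophils mature in steps, and each step fills another kind of granule: primary granules with myeloperoxidase and serine proteases, then specific granules with cathelicidin, lactoferrin and Ngp, then gelatinase granules with Mmp9. Factors of the C/EBP family and PU.1 drive these genes in myeloid cells. In mice the spleen itself makes blood cells, so a leukaemic spleen can hold maturing neutrophils, red cell precursors and lymphocytes beside the leukaemic cells.

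The promoters of the 4 genes that name the profile are shown because the results turn on them. Each sequence is the RefSeq promoter on GRCm38.p6, read 5′ to 3′ on the strand of its gene, from 250 bases before the start of transcription to 50 bases after it. Capitals mark matches, on either strand, to TTNNGNAA (the C/EBP motif searched), GAGGAAGT (PU.1) or AGATAA (for factors of the GATA family), and no 2 matches overlap.
S100a8 (chr3:90668821-90669120, plus strand): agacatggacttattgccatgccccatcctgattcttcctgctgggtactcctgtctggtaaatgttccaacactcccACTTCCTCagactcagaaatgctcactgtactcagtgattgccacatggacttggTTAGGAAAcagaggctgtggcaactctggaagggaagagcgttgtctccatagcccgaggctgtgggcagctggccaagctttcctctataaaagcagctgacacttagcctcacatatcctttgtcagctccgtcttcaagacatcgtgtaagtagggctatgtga
S100a9 (chr3:90695672-90695971, minus strand): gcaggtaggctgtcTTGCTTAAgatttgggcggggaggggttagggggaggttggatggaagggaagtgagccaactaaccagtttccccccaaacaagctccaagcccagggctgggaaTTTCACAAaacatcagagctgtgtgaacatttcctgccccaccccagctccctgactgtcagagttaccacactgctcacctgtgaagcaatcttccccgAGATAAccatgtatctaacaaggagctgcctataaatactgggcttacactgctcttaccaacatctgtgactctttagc
Ngp (chr9:110419558-110419857, plus strand): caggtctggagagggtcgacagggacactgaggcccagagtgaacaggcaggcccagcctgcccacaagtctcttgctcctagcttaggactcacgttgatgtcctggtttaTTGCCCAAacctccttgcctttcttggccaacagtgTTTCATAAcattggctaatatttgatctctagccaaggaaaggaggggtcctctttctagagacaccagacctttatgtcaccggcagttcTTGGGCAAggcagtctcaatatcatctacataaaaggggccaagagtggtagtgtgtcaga
Camp (chr9:109849407-109849706, minus strand): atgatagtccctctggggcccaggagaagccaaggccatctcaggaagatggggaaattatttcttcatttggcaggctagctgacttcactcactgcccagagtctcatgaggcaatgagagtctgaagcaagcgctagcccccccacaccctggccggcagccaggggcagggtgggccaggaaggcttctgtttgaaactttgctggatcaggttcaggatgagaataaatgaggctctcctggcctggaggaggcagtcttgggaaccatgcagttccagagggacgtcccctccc

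S100a8 held 1 C/EBP match and 1 PU.1 match, S100a9 held 2 C/EBP matches and 1 GATA match, Ngp held 3 C/EBP matches, and Camp held none of the 3 motifs. Among all 32851 mouse promoters of this length, 40.68% held the C/EBP motif, 3.202% the PU.1 motif and 11.18% the GATA motif. A match describes these letters only and is no evidence of binding.

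S100a8 ranged from 7.10 over a median of 8.45 to 11.71 in S100a8-high spleens, and from 5.05 over a median of 5.80 to 6.58 in S100a8-low spleens. These are log2 values after robust multi-array averaging (RMA), on which a difference of 1 is a 2-fold change. The division falls inside a continuous spread of values: 5 S100a8-high arrays lay within 1 above the limit and 7 S100a8-low arrays within 1 below it, and the values nearest to it were 7.10 and 6.58. Vpreb1 reached 5.81 in S100a8-high and 6.71 in S100a8-low spleens, and the nearest spleen outside its limit had 7.28. Array medians lay between 5.19 and 5.24, so values of about 5 are the low end of the scale. No call of presence or absence was used, so differences are given on the log2 scale, and those against values near 5 may understate a change.

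S100a9, the partner of S100a8 in calprotectin, rose in the S100a8-high spleens, and no other gene passed the test between the sides. Its value ran from 6.60 over a median of 7.98 to 11.49 in S100a8-high spleens, against 5.30, 5.70 and 6.18 in S100a8-low spleens. Every S100a8-high array lay above every S100a8-low array. The means were 8.41 ± 1.49 and 5.72 ± 0.27 (SD, n = 16 each), a difference of 2.69 ± 0.37 (SE), with an adjusted p of 0.000591 in limma's moderated test with Benjamini-Hochberg adjustment over 18177 genes. In whole-spleen RNA, fewer cells of a type and less RNA per cell cannot be told apart.

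S100a9 is thus 1 of 18177 genes called higher, or 0.0055%, and 0 genes (0.0%) were called lower. At an unadjusted p under 0.05, 1473 genes (8.1%) were higher and 2541 (14.0%) lower, and the smallest adjusted p after that of S100a9 was 0.0673. These shares are the background for each list count at an unadjusted p given below. The differences were negative for most genes, with 36.96% positive and a median of -0.012. At an adjusted p under 0.1, a threshold chosen after the values were seen, 276 genes were higher and 422 lower. S100a9 and Ngp were the only 2 genes (0.011%) whose values on the sides did not overlap.

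**Figure D1:**
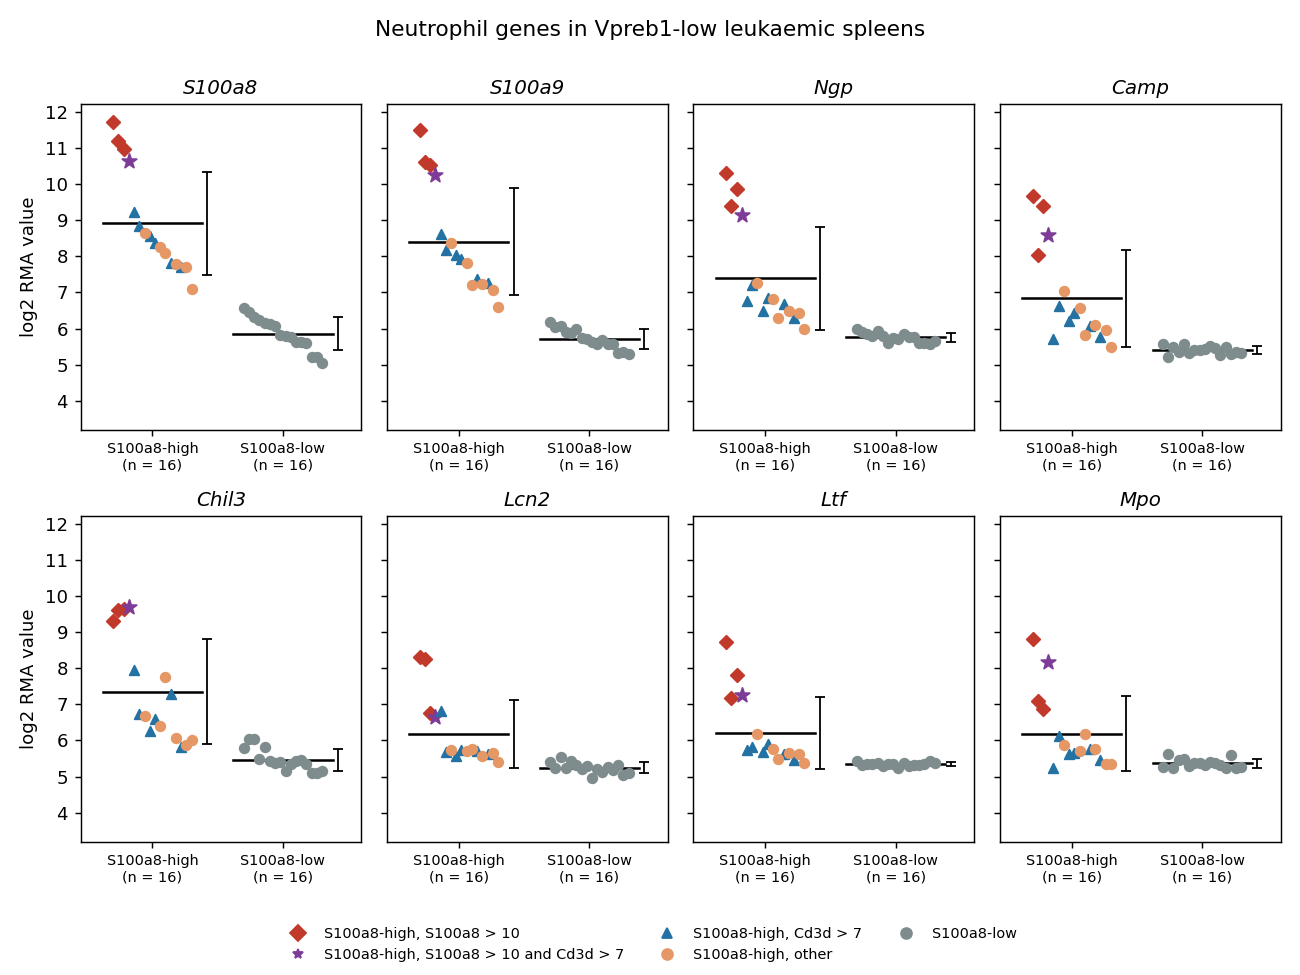
Log2 RMA values of 8 neutrophil genes on the 32 arrays, S100a8-high left and S100a8-low right, each side in order of falling S100a8. Lines are means and bars SDs (n = 16 each); diamonds and the star mark the 4 arrays with S100a8 above 10, which hold the highest values of Ngp (9.14 to 10.31), while the S100a8-low arrays reach 5.98.

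The specific granule genes had the highest median difference of the 24 gene lists described, although none passed the test on all 32 arrays. Ngp, a neutrophil granule protein related to the cathelicidins, ran from 5.98 over 6.78 to 10.31 in S100a8-high spleens, against 5.58, 5.76 and 5.98 in S100a8-low spleens. Its difference was 1.64 ± 0.35 (adjusted p = 0.0914). All 16 S100a8-high arrays lay above the S100a8-low ones, though the 2 nearest values both round to 5.98. Camp, the precursor of the antimicrobial peptide cathelicidin, had 5.49, 6.31 and 9.65 as its lowest, median and highest value in S100a8-high spleens, against 5.22, 5.41 and 5.58 in S100a8-low spleens. It differed by 1.43 ± 0.33 (adjusted p = 0.0914), with 15 of 16 S100a8-high arrays above the S100a8-low range, and its S100a8-low values lie close to the array medians.

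Chil3, a chitinase-like protein of neutrophils and macrophages, ran from 5.81 over 6.70 to 9.70 in S100a8-high spleens, against 5.09, 5.41 and 6.05 in S100a8-low spleens. The difference was 1.89 ± 0.36 (adjusted p = 0.0709), and 13 S100a8-high arrays exceeded the S100a8-low range. Lcn2, a lipocalin that takes iron carriers from bacteria, had a difference of 0.94 ± 0.23 and Ltf, the iron-binding lactoferrin, one of 0.86 ± 0.24 (adjusted p = 0.0914 for both). For each, 15 of 16 S100a8-high arrays lay above the S100a8-low range. In all, 10 of the 11 listed specific granule genes were tested and 10 had a positive difference, with a median of 0.65 against -0.012 over all genes. 7 of them had an unadjusted p under 0.05, and 0 an adjusted p under 0.05.

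Cd177, a surface protein that marks a subset of neutrophils, and Olfm4, a glycoprotein of specific granules, each stood out on 1 S100a8-high array. Cd177 reached 8.14 on that array and at most 6.14 on the others, against at most 5.16 in S100a8-low spleens. Olfm4 reached 7.67 on a different array and at most 5.18 on the other S100a8-high ones, against at most 5.06 in S100a8-low spleens. Their differences between the sides were 0.39 ± 0.19 and 0.22 ± 0.16.

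Primary granule genes, filled earliest, had smaller differences and none was called. Mpo, the myeloperoxidase that makes hypochlorous acid, ran from 5.25 over 5.76 to 8.82 in S100a8-high spleens, against 5.24, 5.34 and 5.62 in S100a8-low spleens, a difference of 0.83 ± 0.26 (adjusted p = 0.0982). Prtn3, a serine protease, differed by 0.69 ± 0.19 (adjusted p = 0.0914). Hp, haptoglobin, which binds free haemoglobin, differed by 0.56 ± 0.17 (adjusted p = 0.0963). It is counted in this list, although its place in primary granules was not checked here. Elane, neutrophil elastase, stayed between 5.37 and 5.92 in S100a8-high spleens and between 5.37 and 5.48 in S100a8-low spleens. All 8 tested of 9 listed genes had positive differences, with a median of 0.43, and 4 had an unadjusted p under 0.05.

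Some primary granule genes were raised on 2 S100a8-low arrays, replicate 12 of those labelled with an Erg insertion and replicate 4 of those labelled without it. Ctsg, cathepsin G, was 7.45 and 5.81 there and at most 5.36 on the other S100a8-low arrays. Ms4a3, a membrane protein of granulocyte and monocyte precursors, was 6.55 and 6.82 there and at most 5.27 on the others. Serpinb1a, an inhibitor of neutrophil proteases, was 7.70 and 7.55 there and at most 6.82 on the others.

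Apart from Ctsc, the remaining genes of the primary granule list were at most 5.75 on both of these arrays. Mpo was 5.59 and 5.62 and Prtn3 5.71 and 5.75, slightly above the other S100a8-low arrays, which reached 5.50 and 5.56. Elane was 5.44 and 5.42 and Hp 5.41 and 5.38, inside the range of the others. Ctsc, the protease that activates granule proteases, was 6.34, the lowest S100a8-low value, and 6.93. S100a9 was 5.32 and 6.04 and Ngp 5.60 and 5.89. The first of these arrays also had Prg2, the eosinophil major basic protein, at 7.38 and Gata2, a regulator of mast cells and basophils, at 8.61, while the second had 5.22 and 6.90. Without the arrays on which Prg2 exceeded 7, the comparison again called 1 gene higher and 0 lower.

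Gelatinase granule and late maturation genes differed by less. Of 13 listed genes, 11 were tested and 10 had a positive difference, with a median of 0.16 and 6 at an unadjusted p under 0.05. Mmp9, the gelatinase itself, ran from 5.20 over 5.29 to 5.83 in S100a8-high spleens, against 5.15, 5.21 and 5.26 in S100a8-low spleens, a difference of 0.18 ± 0.05 (adjusted p = 0.0953). Itgb2, the beta chain of the leukocyte integrins, differed by 0.42 ± 0.17 (adjusted p = 0.163), and Itgam, its partner in Mac-1, by 0.04 ± 0.03 (adjusted p = 0.386). Both stefins tested of 5 listed, cysteine protease inhibitors that mouse neutrophils make, were positive: Stfa2l1 differed by 0.36 ± 0.13 and Stfa3 by 0.13 ± 0.06.

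The phagocyte NADPH oxidase was uneven. Its cytosolic subunits Ncf1 and Ncf4 differed by 0.56 ± 0.18 and 0.32 ± 0.09 (adjusted p = 0.0986 and 0.0963). Its membrane subunits were split, with Cybb at 0.45 ± 0.12 (adjusted p = 0.0914) and Cyba at -0.11 ± 0.15 (adjusted p = 0.681).

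Receptors of neutrophils showed little of the profile, and some had values at the low end of the scale. Over 16 tested of 18 listed genes the median difference was 0.04, with 12 positive, 3 higher and 1 lower at an unadjusted p under 0.05. Over all genes 8.1% were higher and 14.0% lower. Fpr2, a formyl peptide receptor, differed by 0.36 ± 0.11 (adjusted p = 0.0982) and Cxcr2, the chemokine receptor of mature neutrophils, by 0.02 ± 0.03 (adjusted p = 0.784). Csf3r, the receptor of the granulocyte growth factor G-CSF, went the other way: it ran from 5.22 over 5.50 to 8.52 in S100a8-high spleens, against 5.30, 7.47 and 8.66 in S100a8-low spleens. Its difference was -0.91 ± 0.39 (adjusted p = 0.177), and the ranges of the sides overlapped.

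The genes through which extracellular S100a8 and S100a9 are known to act showed little measured difference, and some had values at the low end of the scale. All 9 listed were tested, 5 were positive and the median was 0.05. At an unadjusted p under 0.05, 1 was lower, beside 14.0% of all genes. Tlr4, the Toll-like receptor that S100a8 engages, had a difference of -0.01 ± 0.02, and Ager, the RAGE receptor, one of 0.05 ± 0.03. Cd36, a scavenger receptor that binds the S100a8/S100a9 pair with fatty acids, had a difference of -0.39 ± 0.13 (adjusted p = 0.108).

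Other S100 and alarmin genes ran in the same direction as S100a9 except S100a10. S100a6 differed by 0.56 ± 0.18, the annexins Anxa1 and Anxa2 by 0.49 ± 0.18 and 0.66 ± 0.19, and the galectin Lgals3 by 0.76 ± 0.26. Lgals3 ran from 6.30 over 7.52 to 10.22 in S100a8-high spleens, against 6.63, 6.95 and 7.34 in S100a8-low spleens. S100a10, the annexin A2 partner, differed by -0.32 ± 0.21. The smallest adjusted p among them was 0.0953, for Anxa2, whose highest values lay on arrays with high T cell genes, described below.

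**Figure D2:**
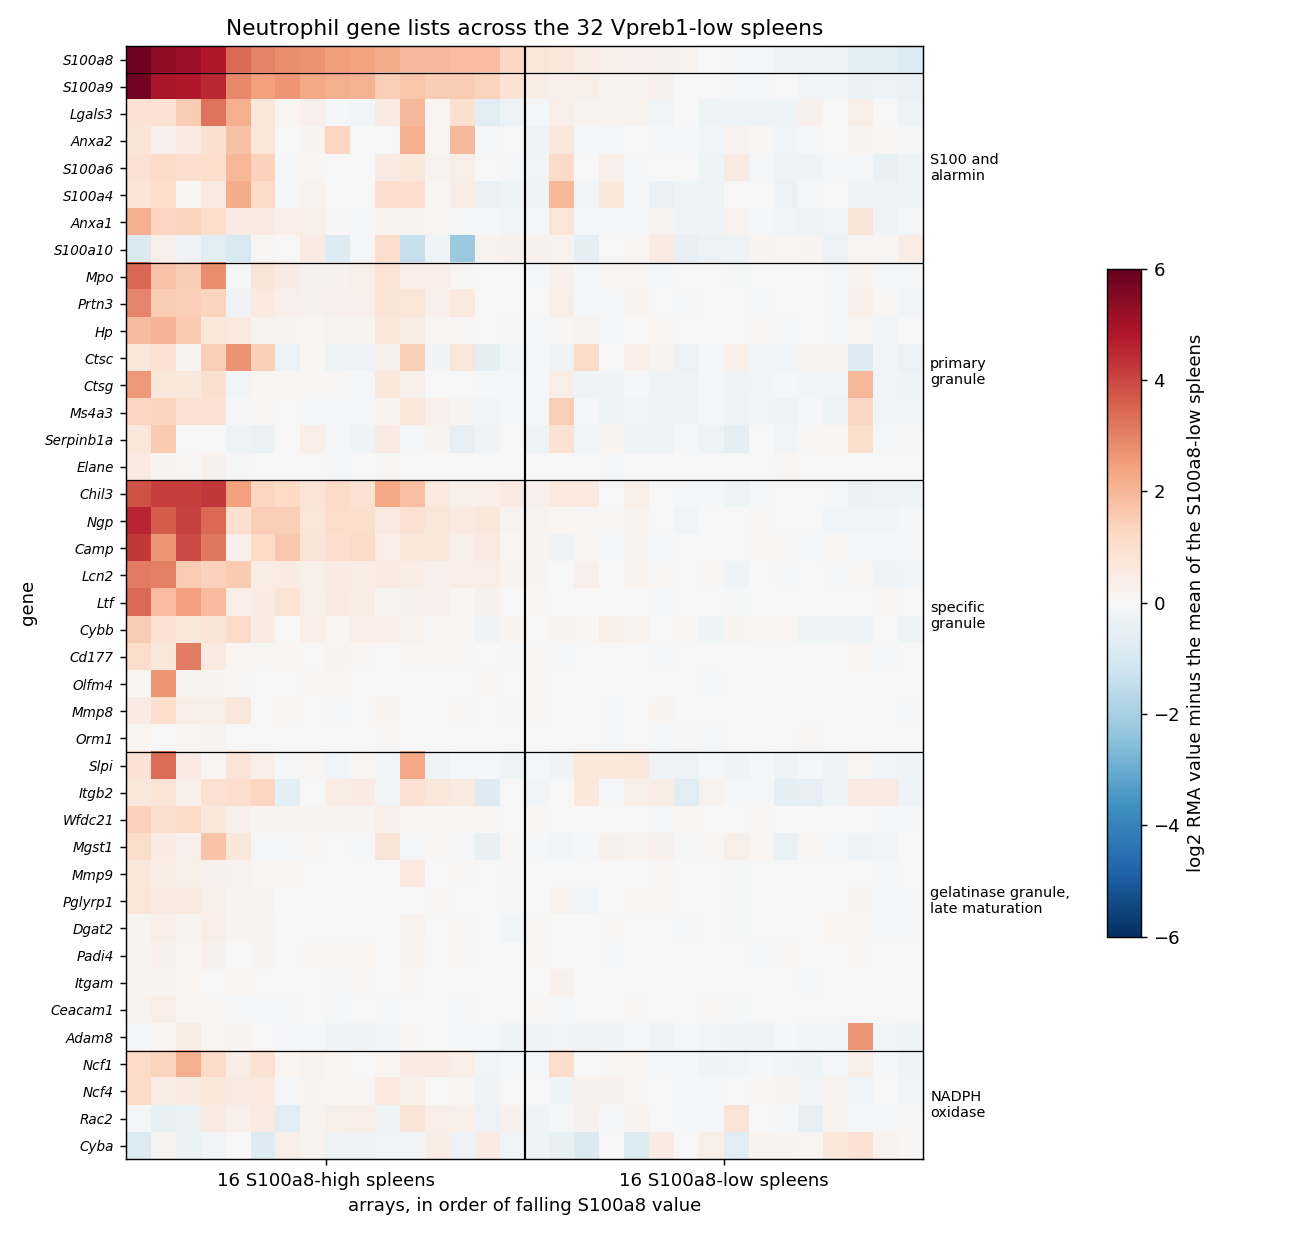
Values of the tested members of 5 gene lists on the 32 arrays, in order of falling S100a8 from left to right, as differences from the mean of the S100a8-low spleens (colour, log2). The 4 leftmost arrays, with S100a8 above 10, hold the highest values of Ngp, Camp, Mpo and Prtn3, while Ctsc is highest on another S100a8-high array (9.84) and Ms4a3 on an S100a8-low array (6.82); S100a9 is raised across all 16 S100a8-high arrays, where its lowest value is 6.60.

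Of the factors that drive granulocyte genes, most of those tested showed small differences between the sides, and some had values at the low end of the scale. Cebpa, which commits cells to the granulocyte and monocyte lines, differed by 0.07 ± 0.05, Cebpb by 0.13 ± 0.18 and Cebpd by 0.14 ± 0.07. Spi1, which encodes PU.1, differed by 0.09 ± 0.05. Cebpa lay between 5.23 and 5.80 in S100a8-high and between 5.18 and 5.75 in S100a8-low spleens. Spi1 lay between 5.16 and 5.93 and between 5.20 and 5.50. These values are near the low end of the scale, so the small differences of Cebpa and Spi1 may understate a change. Gfi1, a repressor used by both neutrophil precursors and T cells, had the widest difference of the list, 0.57 ± 0.15 (adjusted p = 0.0914). Of 10 listed genes, 9 were tested, 8 were positive and 2 were higher at an unadjusted p under 0.05. Cebpe, another factor of the C/EBP family, was listed but not analysed here.

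Gfi1 did not follow S100a8 from array to array. It lay between 5.79 and 6.79 on the 7 S100a8-high arrays with Cd3d, a chain of the T cell receptor complex, above 7. It lay between 5.03 and 5.49 on the 6 S100a8-high arrays with Cd3d at most 7 and S100a8 at most 10, and between 4.97 and 5.45 in S100a8-low spleens. Without the arrays with Cd3d above 7 its difference was 0.11 (adjusted p = 0.676).

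The S100a8-high spleens differed widely among themselves. On 4 arrays S100a8 lay between 10.64 and 11.71, and on the other 12 between 7.10 and 9.23. The limit of 10 was set after the values were seen and serves only to describe them. The 4 arrays had Ngp between 9.14 and 10.31, Camp between 8.03 and 9.65, Chil3 between 9.31 and 9.70 and Ltf between 7.18 and 8.73. The other 12 had Ngp between 5.98 and 7.25, Camp between 5.49 and 7.03, Chil3 between 5.81 and 7.94 and Ltf between 5.37 and 6.17. The 2 sets of arrays did not overlap for any of these 4 genes. The sets were divided by S100a8 itself, and how many of all genes fail to overlap in this division was not counted.

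Without those 4 arrays, 8 genes were called higher (0.044%) and 6 lower (0.033%), and 7 of the 8 are genes of neutrophils. They were S100a9 (difference 1.92, adjusted p = 7.15e-08), Ngp (0.87, adjusted p = 1.21e-05), Camp (0.74, adjusted p = 0.00183), Ltf (0.35, adjusted p = 0.00243), Chil3 (1.15, adjusted p = 0.00673), Wfdc21 (0.16, adjusted p = 0.0190), Lcn2 (0.50, adjusted p = 0.0200) and Ddx52, an RNA helicase (0.13, adjusted p = 0.0459). For the 7 neutrophil genes the differences were smaller than on all 32 arrays. The 6 lower genes, Has1, Cspg4, Ces5a, Wdr82, Unc5a and Mroh3, differed by -0.18 to -0.07. On the same arrays the difference between 3-prime and 5-prime control probe sets, a measure of RNA breakdown, was lower in S100a8-high than in S100a8-low spleens, by -0.306 (two-sided permutation test with 100000 resamples, adjusted p = 0.0400, n = 12 and 16). Its part in these calls was not tested.

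T cell and cytotoxic genes were high on part of the S100a8-high side. Cd3d exceeded 7 on 7 S100a8-high arrays, where it reached 10.23, and on 0 S100a8-low arrays, where it reached 6.79. Its difference was 1.57 ± 0.50 (adjusted p = 0.0993). On those 7 arrays Gzma, a granzyme of killer lymphocytes, lay between 7.61 and 10.88 and Sox4, a factor of early lymphoid and progenitor cells, between 7.61 and 9.69. Gzma stayed between 5.41 and 6.45 on the 6 S100a8-high arrays with neither level. In S100a8-low spleens Gzma reached 8.01, on the array with the highest Cd3d of that side, and 6.99 on the next, and Sox4 reached 7.96 on a different array, so for both genes 1 S100a8-low array lay inside the range of the 7. Of 20 listed T and NK cell genes, 18 were tested, 16 were positive with a median of 0.42, and 11 were higher at an unadjusted p under 0.05. The annexin Anxa2 was also highest on arrays with Cd3d above 7, up to 8.32. It lay between 6.44 and 7.11 on the 4 arrays with S100a8 above 10. On the 6 S100a8-high arrays with neither level it lay between 6.03 and 6.27, inside the S100a8-low range of 5.88 to 6.81.

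Of the 7 arrays with Cd3d above 7, 1 also had S100a8 above 10. With all arrays above either level left out, 6 S100a8-high arrays remained against 16 S100a8-low arrays. On these, 4 genes were called higher (0.022%): S100a9 (1.66, adjusted p = 9.98e-05), Ngp (0.79, adjusted p = 0.00539), Lcn2 (0.39, adjusted p = 0.0372) and Camp (0.75, adjusted p = 0.0470). Has1, a hyaluronan synthase, was the 1 gene called lower (0.0055%), by 0.08. Leaving out only the arrays with high Cd3d left 9 S100a8-high arrays and kept S100a9 past the threshold (2.83, adjusted p = 0.0237). Ngp then had an adjusted p of 0.410, although its difference was wider than in the main comparison (1.89 against 1.64).

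With the S100a8 limit at 8 in place of 7, 11 arrays stood against 21, and 12 genes were called higher (0.066%) and 4 lower (0.022%). The 12 were S100a9, Chil3, Ngp, Camp, Lcn2, Ltf, Cybb, Ncf4, Wfdc21, Fpr2, Mcemp1 and Lcor, a nuclear receptor corepressor. Ngp had a difference of 1.95 (adjusted p = 0.00799) there and Chil3 one of 2.23 (adjusted p = 0.00170). The 4 lower genes, Nbn, Agk, Gemin8 and Tra2b, differed by -0.29 to -0.10.

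**Figure D3:**
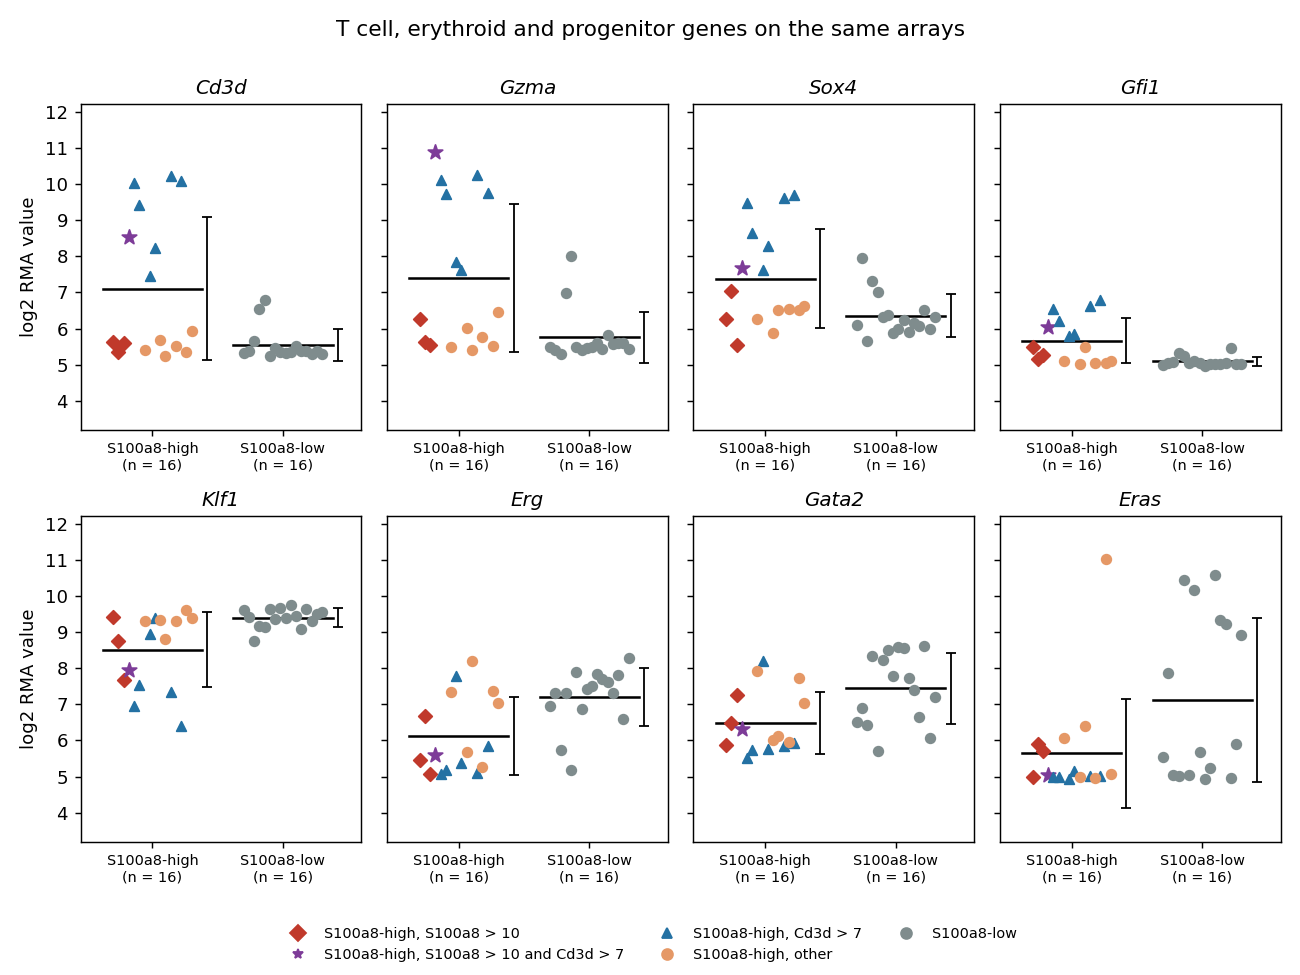
Log2 RMA values of 8 lymphoid, erythroid and progenitor genes on the same 32 arrays, S100a8-high left and S100a8-low right, with lines for means and bars for SDs (n = 16 each). Triangles and the star mark the 7 arrays with Cd3d above 7, which also hold the highest Gfi1 values (5.79 to 6.79); Klf1 reaches down to 6.39 in S100a8-high spleens and to 8.75 in S100a8-low spleens.

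Erythroid genes did not pass the test, and most differences were negative, as they were for most genes of the array. Klf1, the factor that switches on adult globin genes, ran from 6.39 over 8.89 to 9.61 in S100a8-high spleens, against 8.75, 9.43 and 9.76 in S100a8-low spleens. Its difference was -0.89 ± 0.26 (adjusted p = 0.0953), and 7 S100a8-high arrays lay below every S100a8-low array. Gata1, the master factor of red cell precursors, differed by -0.57 (adjusted p = 0.159) and Ermap, a red cell membrane protein, by -0.67 (adjusted p = 0.152). Of 24 listed erythroid genes 20 were tested, 2 were positive (36.96% of all genes were), and the median was -0.20 against -0.012 over all genes. 4 of the 20 were lower at an unadjusted p under 0.05, beside 14.0% of all genes. On the 6 S100a8-high arrays with neither high S100a8 nor high Cd3d, Klf1 lay between 8.82 and 9.61, inside the S100a8-low range. With Klf1 as a covariate S100a9 still passed (2.60, adjusted p = 0.0287), and Ngp had a difference of 1.61 (adjusted p = 0.644).

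Progenitor regulators that divide these spleens in other ways were spread unevenly over the sides. Erg, a stem cell ETS factor and the insertion target named in the labels, exceeded 7 on 5 S100a8-high and 11 S100a8-low arrays, with a difference of -1.08 ± 0.33 (adjusted p = 0.0978). It exceeded 7 on 4 of the 6 S100a8-high arrays with neither high S100a8 nor high Cd3d. It did so on 1 of the 7 arrays with Cd3d above 7 and 0 of the 4 with S100a8 above 10. Gata2 exceeded 7 on 5 S100a8-high and 10 S100a8-low arrays and differed by -0.96 ± 0.32 (adjusted p = 0.107). Eras, an embryonic Ras protein, exceeded 7 on 1 S100a8-high array, at 11.01, and on 7 S100a8-low arrays, the highest at 10.59, and differed by -1.48 ± 0.67 (adjusted p = 0.192). Lmo2, a partner of Gata1 and Gata2, differed by -0.71 (adjusted p = 0.147). The listed stem and progenitor genes had no common direction: 8 of 17 were positive and the median was -0.004.

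Monocyte and macrophage genes were partly higher on the S100a8-high side, and none was called. Lyz2, the lysozyme of macrophages and neutrophils, ran from 7.17 over 8.74 to 10.64 in S100a8-high spleens, against 7.44, 7.99 and 8.72 in S100a8-low spleens, a difference of 0.98 ± 0.28 (adjusted p = 0.0950). Csf1r, the macrophage growth factor receptor, differed by 0.70 (adjusted p = 0.124). Of 22 listed genes 20 were tested, 16 were positive with a median of 0.16, and 7 were higher at an unadjusted p under 0.05. Of the 7 arrays with Cd3d above 7, 6 had Lyz2 above 9.

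Ppbp, a platelet chemokine, ran from 5.82 over 7.05 to 10.80 in S100a8-high spleens, against 5.07, 6.13 and 8.48 in S100a8-low spleens. Its difference of 1.24 ± 0.39 (adjusted p = 0.0986) was the widest of the 15 tested platelet genes of 16 listed. Pkm, the pyruvate kinase of glycolysis, differed by 0.80 ± 0.19 (adjusted p = 0.0914), and the hexokinases were split, with Hk2 at 0.25 ± 0.08 and Hk1 at -0.67. Interferon-stimulated genes (14 tested of 17) had a median of 0.19 with 13 positive and 0 at an unadjusted p under 0.05. Cell cycle genes (18 tested of 19) had a median of -0.08 with 4 positive.

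**Figure D4:**
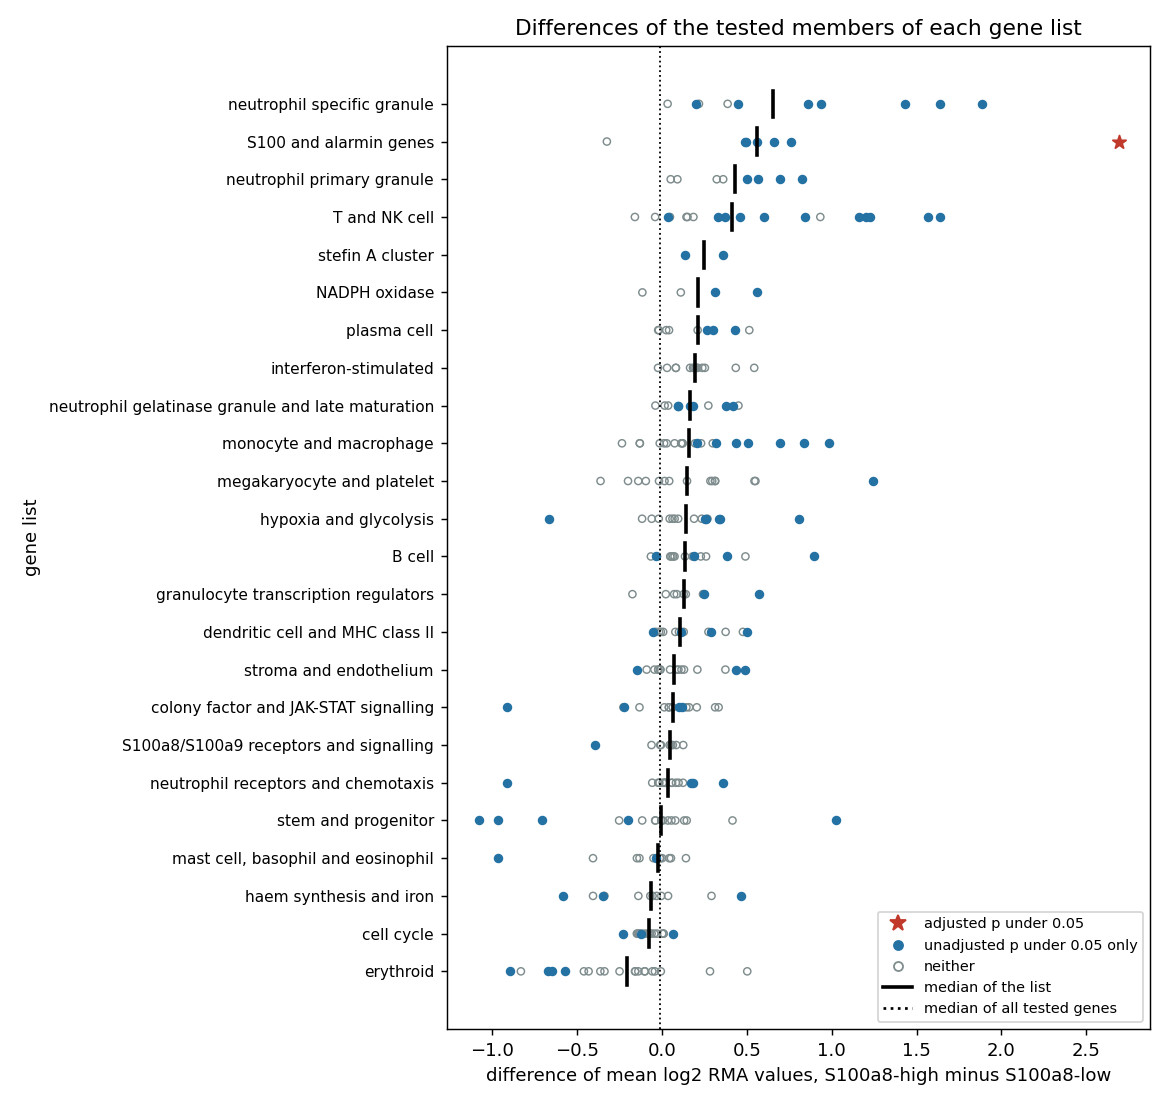
Difference of mean log2 RMA values, S100a8-high minus S100a8-low, for each tested member of the 24 gene lists, sorted by list median (black bar). Specific granule genes have the highest median (0.65), erythroid genes the lowest (-0.20), and S100a9 (star, 2.69) is the 1 listed gene past the threshold.

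Taking S100a8 as a continuous value over the same 32 arrays, in place of 2 sides, gave more calls. The value of 521 genes increased with S100a8 (2.87%) and that of 1166 decreased (6.41%) at an adjusted p under 0.05. The slope of S100a9 was 0.92 per unit of S100a8 (adjusted p = 1.87e-26), that of Chil3 0.70, that of Ngp 0.65 and that of Camp 0.57. By list, 9 of 10 tested specific granule genes increased, 6 of 8 primary granule genes, 8 of 11 gelatinase granule genes, both stefins, 4 of 16 receptors, 2 of 4 oxidase genes, 4 of 7 S100 and alarmin genes, 2 of 9 granulocyte regulators and 0 of 9 genes of S100a8 and S100a9 receptors and signalling. Over these 9 lists together, 37 of 76 genes increased and 0 decreased.

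Lists of other cell types and processes also held calls in this fit. Of the monocyte and macrophage genes 6 of 20 increased, and of the hypoxia and glycolysis genes 4 of 16 increased and 1 decreased. Of the cell cycle genes 3 of 18 decreased, and of the stem and progenitor genes 2 of 17. Over all genes 2.87% increased and 6.41% decreased. The increased shares of the monocyte and macrophage list and of the hypoxia and glycolysis list lay above the first of these. The decreased shares of the cell cycle list and of the stem and progenitor list lay above the second. The lists are short, and no list was tested as a set. None of the 18 tested T and NK cell genes and none of the 20 tested erythroid genes was called in either direction.

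Some genes outside the lists were named from the same fit after their values were seen. Mcemp1, a mast cell and myeloid membrane protein, and Ifitm6, an interferon-induced membrane protein of myeloid cells, increased by 0.08 and 0.23 per unit. Nbn, a subunit of the complex that senses DNA breaks, decreased by 0.08 per unit. Its lowest, median and highest value were 5.85, 6.24 and 6.50 in S100a8-high spleens, against 6.30, 6.51 and 6.59 in S100a8-low spleens. The mitochondrial ribosomal genes Mrps26 and Mrpl35, the chaperonin subunit Tcp1 and the ribosomal gene Rps26 also decreased, by 0.05 to 0.09 per unit.

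Without the 4 arrays with S100a8 above 10, the continuous fit called other genes to a large part. On the remaining arrays 430 genes increased (2.37%) and 464 decreased (2.55%). Of these, 114 of the increased genes were called on all 32 arrays as well, which is 21.9% of the 521 and 26.5% of the 430, and 136 of the decreased genes, 11.7% and 29.3%. Of the specific granule genes, 9 were called on all arrays and 7 without the 4. Primary granule genes were called 6 and 2 times, and T and NK cell genes 0 and 7 times. The slopes were lower without the 4 arrays: that of Ngp was 0.37 (adjusted p = 9.16e-10), against 0.65 on all 32, and that of Camp 0.30 (adjusted p = 0.000135), against 0.57. The slope of Elane had an adjusted p of 0.720.

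Single arrays also decided how many genes the comparison of sides called. Without the S100a8-high spleen that is replicate 20 of those labelled with an Erg insertion, 167 genes were higher (0.919%) and 197 lower (1.08%). That array had S100a8 at 7.70, Ngp at 6.43 and Eras at 11.01. Without the S100a8-high spleen that is replicate 10 of those labelled without the insertion, 96 were higher (0.528%) and 183 lower (1.01%). This one had S100a8 at 8.65, Ngp at 7.25 and Eras at 6.07. The 2 sets of calls shared 86 higher and 122 lower genes. Camp, Chil3, Cybb, Gfi1, Lcn2, Ngp, Padi4, Pkm and S100a9 were higher in both. Leaving out any other single array gave 1 to 5 higher genes and 0 to 6 lower ones, and S100a9 passed each time, with a difference between 2.48 and 2.81 over all 32 omissions.

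**Figure D5:**
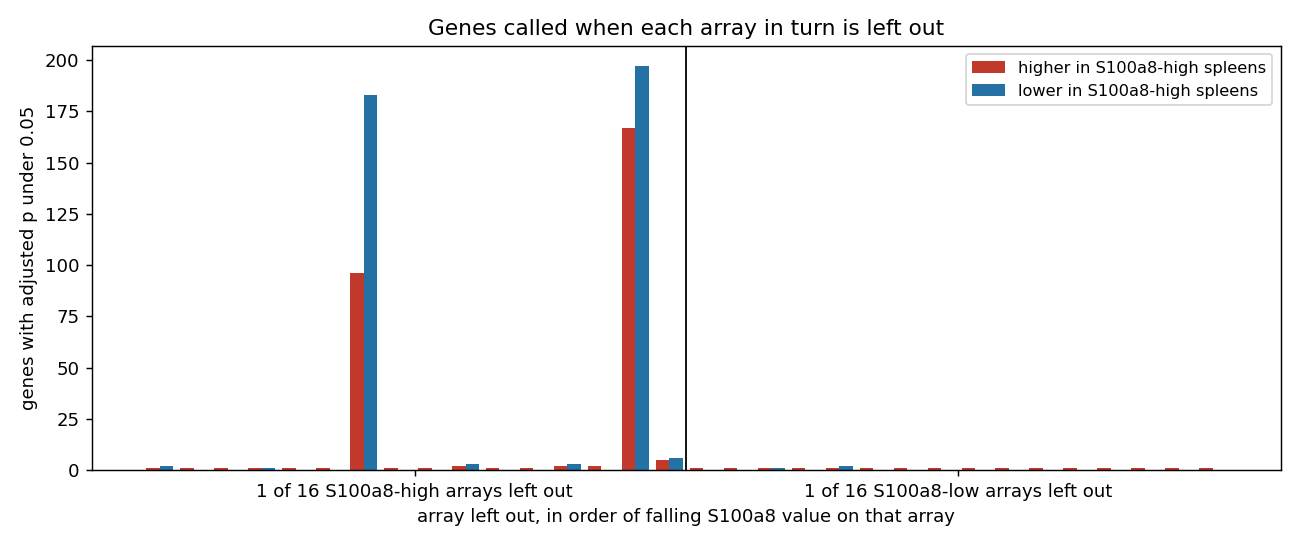
Number of genes with an adjusted p under 0.05 when each of the 32 arrays is left out in turn, ordered by the S100a8 value of that array. The 2 tall pairs of bars (96 and 183, 167 and 197) belong to S100a8-high arrays; every other omission gives at most 6 calls in a direction.

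The 15 spleens with Vpreb1 above 7 held S100a8 at 6.63, 9.88 and 11.99 as lowest, median and highest value, and 14 of them lay above 7. Ngp ran there from 5.95 over 7.88 to 10.20. With 1 such array on the lower side of the S100a8 limit, the comparison was not repeated among them. With all 47 arrays and the Vpreb1 class as a covariate, S100a9 (2.72), Chil3 (1.94) and Ngp (1.69) were called higher (adjusted p = 3.47e-05, 0.0262 and 0.0445).

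Labels and RNA quality were compared between the sides as 5 measures, with p-values adjusted over the 5. The age label averaged 72.4 ± 15.1 in S100a8-high and 60.1 ± 16.7 in S100a8-low mice (two-sided permutation test, p = 0.0406, adjusted p = 0.203, n = 16 each). The difference between 3-prime and 5-prime control probe sets, which grows as RNA breaks down, averaged 1.34 ± 0.46 and 1.45 ± 0.34 (permutation test, p = 0.428, adjusted p = 0.458). With this difference as a covariate, 10 genes were called higher (0.055%), among them S100a9, Chil3, Ngp, Camp, Ltf and Wfdc21, and 23 lower (0.127%). The label of an Erg insertion (12 and 9 of 16) and the label of the 6113 line (4 and 8 of 16) gave p = 0.458 and p = 0.273 in Fisher's exact test (adjusted p = 0.458 and 0.456). Xist was present in 5 and 10 of 16 (p = 0.156, Fisher's exact test, adjusted p = 0.389).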

How the data were processed

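Spleen RNA of 47 mice was hybridised to Affymetrix Mouse Genome 430 2.0 arrays, 1 array per mouse. The authors deposited log2 values made by RMA (background correction, quantile normalization and summary per probe set) in the affy package of R 2.15, per the submitters' processing notes. RMA gives no read depth; the number of arrays limits the precision.

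For each of 18194 genes the single-gene probe set with the highest mean was used, so other probe sets of a gene are left out. Genes above 5 on at least 9 of 47 arrays were tested, which removed 15. S100a8 and Vpreb1 stayed out of the test. The sides were compared with limma 3.58.1 (lmFit and eBayes, R 4.3.3), with Benjamini-Hochberg adjustment over 18177 genes and a threshold of 0.05. The procedure was tried on these same arrays with the sides shuffled and known constant shifts added to some genes. Labels were compared by permutation (100000 resamples) or Fisher's exact test. Named genes are all members of the neutrophil-related lists and the genes that divide the spleens in other ways. In each other list no member passed the threshold, so members with the smallest p in these same data were named. Further genes were named after their values were seen. The members and the gene lists were chosen with earlier results of these data known. Promoters are RefSeq sequences. List genes with no single-gene probe set were not analysed here.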

Additional observations from a re-analysis of the deposited data

Results flagged for a closer look

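Probe sets with no single gene name lie outside the comparison across genes. For this check 10057 such probe sets were fitted together with the 18177 tested genes, and p-values were adjusted over both. Of the 10057, 1 was higher in S100a8-high spleens (adjusted p under 0.05, limma) and 1 was lower, with differences of 0.24 and -0.061 on the log2 scale. No gene is named for them here.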

How the results depend on the processing

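S100a9 was higher in S100a8-high spleens in all 53 settings, with an adjusted p of at most 0.0287 (limma). The comparison called 1 gene higher and 0 lower. The counts were also 1 and 0 with a Vpreb1 limit of 6, without arrays with Cd3d or Prg2 above 7, with the Xist class, the line and Erg labels, the tumour identifier number or Klf1 as covariates, with the probe set of highest SD, and with no filter on low values. They were 12 and 4 with an S100a8 limit of 8, 3 and 12 without arrays with S100a8 from 6 to 8, 3 and 0 on all 47 arrays with the Vpreb1 class as a covariate, 10 and 23 with the 3-prime minus 5-prime control difference as a covariate, 3 and 3 for genes with a mean above 6, and 3 and 2 with a variance of its own for each side. S100a8 as a continuous value gave 521 and 1166. Of settings chosen after seeing the data, an adjusted p threshold of 0.1 gave 276 and 422, leaving out arrays with S100a8 above 10 gave 8 and 6, leaving out also those with Cd3d above 7 gave 4 and 1, and the continuous fit gave 430 and 464 without arrays with S100a8 above 10 and 562 and 1251 with the 3-prime minus 5-prime difference as a covariate. Leaving out each array in turn gave 1 to 167 genes higher and 0 to 197 lower; the arrays that decide these ranges are both S100a8-high. The cause of these changes was not tested. Among 133 named genes, 82 that missed the threshold in the main comparison passed it, in the same direction, in at least 1 other setting. Part of the 133 were named because they passed the continuous fit, itself among these settings, or had the smallest p. The count of 82 therefore does not describe genes at large, and the same count over all tested genes was not made. Without arrays with S100a8 above 10 the 3-prime minus 5-prime control difference was lower in S100a8-high spleens, by -0.306 (permutation test with 100000 resamples, adjusted p = 0.0400).

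The test within Vpreb1-high spleens and the test of a difference between the Vpreb1 classes were not run, since 1 Vpreb1-high array had S100a8 at or below 7 and at least 3 were required. No paired analysis was possible because the sides were formed from measured values, each array is another mouse, and the sample numbers pair none of them.

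The sides come from the value of 1 gene in whole-spleen RNA, with 5 arrays within 1 above the limit and 7 within 1 below it. Values of about 5 lie at the low end of the scale. The labelled sex of 18 of the 32 arrays goes against Xist, which limits the label comparisons.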
